A study of Bos taurus with 6 samples.

Results

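The genes described here are 5 named parts of the mitochondrial respiratory chain and ATP synthase, COX1, COX3, ATP6, ATP8 and COX6A2, taken by name from a table of 2040 genes. COX3, ATP6 and ATP8 carry identical counts in all 6 libraries, so the 5 names stand for 3 loci, which are COX1, a joint COX3/ATP6/ATP8 locus and COX6A2. By the labels, RNA sequencing was made from longissimus dorsi, a muscle along the spine, at ribs 12 and 13. The cattle were Angus and Chinese Simmental aged 18 months, with 3 libraries per breed and no treatment. By its title, the study is about intramuscular fat. Nothing in the labels ties each library to an animal of its own, so p-values measure only the spread between these samples, which may be technical.

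Respiration in mitochondria passes electrons along complexes I to IV to oxygen, and ATP synthase, complex V, uses the resulting proton gradient to make ATP. Mitochondrial DNA encodes a few core subunits of these complexes and is transcribed into long RNAs that are cut at the tRNAs between the genes, while the other subunits are encoded in the nucleus. COX1 is the catalytic subunit of cytochrome c oxidase (complex IV), where oxygen is reduced, and COX3 is another of its core subunits. ATP6 forms part of the proton path of ATP synthase and ATP8 is a small membrane subunit of its stalk. COX6A2 is the form of the nuclear complex IV subunit 6A found in heart and skeletal muscle.

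The table holds only genes that the authors had selected as differing between the breeds. In the authors' deposited table no log2 fold change is smaller in size than 1.00, and no adjusted p exceeds 0.0492. The direction of each member was therefore fixed by that selection, and the tests below describe selected genes and are no independent evidence of a difference. By edgeR's quasi-likelihood test, with p-values adjusted after Benjamini and Hochberg, 1987 of 1989 tested genes (99.9%) passed the threshold of 0.05, with 495 (24.9%) toward Angus and 1492 (75.0%) toward Chinese Simmental. With TMM factors computed over the listed genes the split was 497 and 263. Summed over distinct listed loci, with identical counts used once, Angus libraries held 9183204 to 12499978 counts and Chinese Simmental libraries 11939669 to 26445266. The full depth is unknown here. Chinese Simmental replicate 1 stands apart from the other libraries in the mitochondrial loci, so values without it are given beside them.

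COX1 had the highest mean count of all listed genes and was about 4 times as high in Angus as in Chinese Simmental. The Chinese Simmental libraries were widely spread, and COX1 was just outside the test's threshold. Divided by the authors' size factors, its counts were 1962936, 2776610 and 2575089 in Angus replicates 1 to 3, against 61045, 640432 and 1145596 in Chinese Simmental replicates 1 to 3. Every Angus library lay above every Chinese Simmental library. The breeds did not overlap for 90.3% of all listed genes, and 24.4% were higher in every Angus library, beside 25.0% with a higher mean in Angus. The Angus libraries lay within 1.42-fold of each other, whereas the highest Chinese Simmental library was 18.8 times the lowest. The means were 2438212 ± 423754 in Angus and 615691 ± 542699 in Chinese Simmental (SD, n = 3 each), which is 3.96-fold higher in Angus. The log2 fold change, Angus minus Chinese Simmental, was 1.99 ± 0.89 (SE), with a Benjamini-Hochberg adjusted p of 0.0512 in the edgeR quasi-likelihood test. In that fit COX1 was thus 1 of only 2 tested genes of the table that missed the threshold, the other being BBS5 (adjusted p = 0.0526). By the same test COX1 passed with identical counts used once (adjusted p = 0.0434) and with no filter on low counts (adjusted p = 0.0474). Of 6 fits with a single library left out, 2 passed for COX1. With the replicate number as a block, the edgeR log2 fold change was 2.67 with adjusted p = 0.00579. Without Chinese Simmental replicate 1 it was 1.45 with adjusted p = 0.0141, and without Chinese Simmental replicate 3 it was 2.80 with adjusted p = 0.0389. The authors' deposited table gives a log2 ratio of Chinese Simmental over Angus of -1.70 with adjusted p = 0.0311, while the log2 ratio of its own deposited group means is -1.99. In such bulk samples fewer cells of a type and less RNA per cell cannot be told apart.

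**Figure D1:**
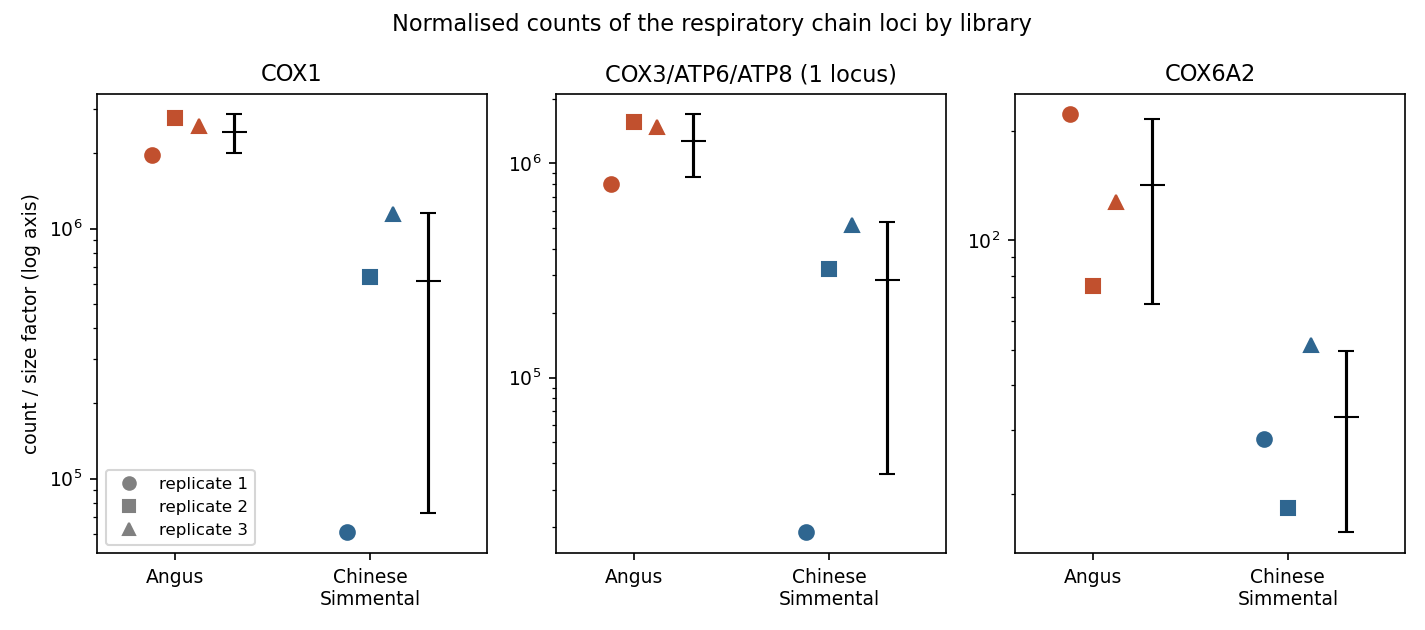
Counts divided by the authors' size factors (log axis) of COX1, the joint COX3/ATP6/ATP8 locus and COX6A2, with Angus left and Chinese Simmental right. Each marker is a library and the bars show the mean ± SD of 3 libraries. All Angus libraries lie above all Chinese Simmental libraries in each panel, and Chinese Simmental replicate 1 lies far below replicates 2 and 3 for the mitochondrial loci but not for COX6A2.

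The joint COX3/ATP6/ATP8 locus was 4.49-fold higher in Angus and passed the test. In the mitochondrial DNA of the RefSeq table these genes follow one another, ATP8, ATP6 and then COX3, and COX2 lies between them and COX1. Which of the 3 genes the reads came from cannot be told apart, and whether the counted stretch reaches beyond them is not stated. Normalised counts were 800847, 1559891 and 1474165 in Angus replicates 1 to 3, against 19000, 322015 and 513571 in Chinese Simmental replicates 1 to 3. The breeds did not overlap, and the lowest library was again Chinese Simmental replicate 1, while Angus replicate 1 was the lowest of its breed. Means were 1278301 ± 415703 in Angus and 284862 ± 249370 in Chinese Simmental (SD, n = 3 each). The log2 fold change was 2.17 ± 0.95 (SE) with adjusted p = 0.0471 in the edgeR quasi-likelihood test. That call was lost without any of the Angus libraries or without Chinese Simmental replicate 2, at adjusted p between 0.0537 and 0.0984. Without Chinese Simmental replicate 1 the log2 fold change was 1.61 (adjusted p = 0.0120), and without Chinese Simmental replicate 3 it was 2.91 (adjusted p = 0.0458). In the authors' deposited table the locus has a log2 ratio of Chinese Simmental over Angus of -1.81 and an adjusted p of 0.0307.

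The mitochondrial loci held a large part of the listed counts in Angus. Together they made up 25.8%, 37.8% and 33.7% of the counts over distinct listed loci in Angus replicates 1 to 3, against 0.638%, 5.15% and 6.46% in Chinese Simmental replicates 1 to 3. Wilson 95% intervals reach at most 0.031 percentage points to either side and cover counting error only. The shares are of selected genes, and 75.0% of the tested ones were called toward Chinese Simmental. That widens the contrast of shares beyond that of the normalised counts, and shares of all reads are unknown here. Within Chinese Simmental, the SD of log2 normalised counts was 2.24 for COX1 and 2.57 for the joint locus, which ranked 32 and 13 from the highest among 1924 tested loci, whose median was 0.592. Within Angus these SDs were 0.263 and 0.533, against a median of 0.431 over the same loci.

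COX6A2, the muscle form of the nuclear subunit, was 4.33-fold higher in Angus, at far lower counts than COX1. Its deposited counts were 260, 60 and 130 in Angus replicates 1 to 3, against 27, 20 and 53 in Chinese Simmental replicates 1 to 3. Exact Poisson 95% intervals ran from 229 to 294 for the highest of these counts and from 12.2 to 30.9 for the lowest, covering counting error only. Normalised counts were 222.5, 74.9 and 128.0 in Angus and 28.4, 18.3 and 51.5 in Chinese Simmental, so the breeds did not overlap. Means were 142 ± 74.8 in Angus and 32.7 ± 17.0 in Chinese Simmental (SD, n = 3 each). The log2 fold change was 2.11 ± 0.65 (SE) with adjusted p = 0.0150 in the edgeR quasi-likelihood test. Without Angus replicate 1, the highest library, it was 1.63 with adjusted p = 0.0566. Without Chinese Simmental replicate 1 it was 2.02 with adjusted p = 0.0333. The authors' deposited table lists a log2 ratio of Chinese Simmental over Angus of -1.88 with adjusted p = 0.00626.

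The protein-coding neighbours of COX6A2 in the RefSeq table are ARMC5, which was not analysed here, and ITGAD, the alpha D chain of a leukocyte integrin, which is listed too and was chosen here after its values were seen. ITGAD had normalised counts of 8452, 2919 and 4792 in Angus replicates 1 to 3, against 1435, 753 and 722 in Chinese Simmental replicates 1 to 3. Its log2 fold change was 2.47 ± 0.50 (SE) with adjusted p = 0.00441 in the edgeR quasi-likelihood test. The ratio of ITGAD to COX6A2 counts was 38.0, 39.0 and 37.5 in the Angus libraries, against 50.6, 41.1 and 14.0 in the Chinese Simmental libraries. Chinese Simmental replicate 3 held more COX6A2 per ITGAD than any other library. In Angus both genes kept nearly the same proportion in all 3 libraries, but closer than counting error can resolve. The COX6A2 count of 60 in Angus replicate 2 has an exact Poisson 95% interval of 45.8 to 77.2, in proportion wider than the spread of these ratios. Across the 6 libraries the log2 values of both had a Pearson correlation of 0.896, the 41st highest of COX6A2 with 1923 other loci. The strand setting of the counting is unknown here, and whether reads from ITGAD were counted for COX6A2 was not tested.

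Per length, COX1 was the highest of these loci and COX6A2 the lowest in every library. FPKM of COX1 was 72211 ± 7311 in Angus and 16554 ± 13959 in Chinese Simmental (SD, n = 3 each). FPKM of the joint locus was 6176 ± 1669 in Angus and 1270 ± 1027 in Chinese Simmental, and that of COX6A2 was 24.9 ± 17.7 in Angus and 5.20 ± 2.05 in Chinese Simmental. The gene lengths behind these levels are not stated. Deposited counts per unit of FPKM were 3.73 to 6.33 times as high for the joint locus as for COX1, with the lowest value in Chinese Simmental replicate 1. The level of the joint locus relative to COX1 is therefore uncertain. Whether that locus covers more of the mitochondrial DNA than COX3, ATP6 and ATP8 is unknown here.

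COX1 and the joint locus moved together, whereas COX6A2 moved apart from them, most of all in Chinese Simmental replicate 1. Within Angus too, COX6A2 was highest in replicate 1, where COX1 and the joint locus were lowest. The ratio of COX1 to the joint locus in FPKM was 14.9, 10.4 and 11.1 in Angus replicates 1 to 3, against 12.0, 12.2 and 13.7 in Chinese Simmental replicates 1 to 3, so the breeds overlapped. Its mean log2 value was 3.58 ± 0.28 in Angus and 3.66 ± 0.11 in Chinese Simmental (SD, n = 3 each; difference -0.07, exact two-sided permutation p = 0.7, where the smallest possible p is 0.1). In counts the difference was -0.30 (exact permutation p = 0.3). The log2 ratio of COX6A2 to COX1 in FPKM was -10.49, -12.81 and -11.92 in Angus replicates 1 to 3, against -8.28, -12.52 and -11.96 in Chinese Simmental replicates 1 to 3. Here replicate 1 was the highest library of each breed, and the other libraries of the breeds overlapped. The difference in means was -0.82 (exact two-sided permutation p = 0.7), and without Chinese Simmental replicate 1 it was 0.50. For COX6A2 against the joint locus the difference was -0.89 (exact permutation p = 0.6), and without Chinese Simmental replicate 1 it was 0.39. Set against the Chinese Simmental library of the same replicate number, the log2 ratio of COX6A2 to the joint locus was lower in Angus in all 3 pairs, by differences of -1.90, -0.51 and -0.27 in FPKM (exact sign-flip permutation p = 0.25, the smallest that 3 pairs can give). Without the first pair their mean was -0.39. For COX6A2 against COX1 the paired differences were -2.21, -0.28 and 0.04 (exact sign-flip permutation p = 0.5). For COX1 against the joint locus they were 0.314, -0.225 and -0.311 in FPKM. In counts these last differences were -0.391, -0.16 and -0.352, lower in Angus in all 3 pairs (exact sign-flip permutation p = 0.25). These ratios do not depend on library scaling, and neither 3 libraries per breed nor 3 pairs can give a p under 0.05.

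**Figure D2:**
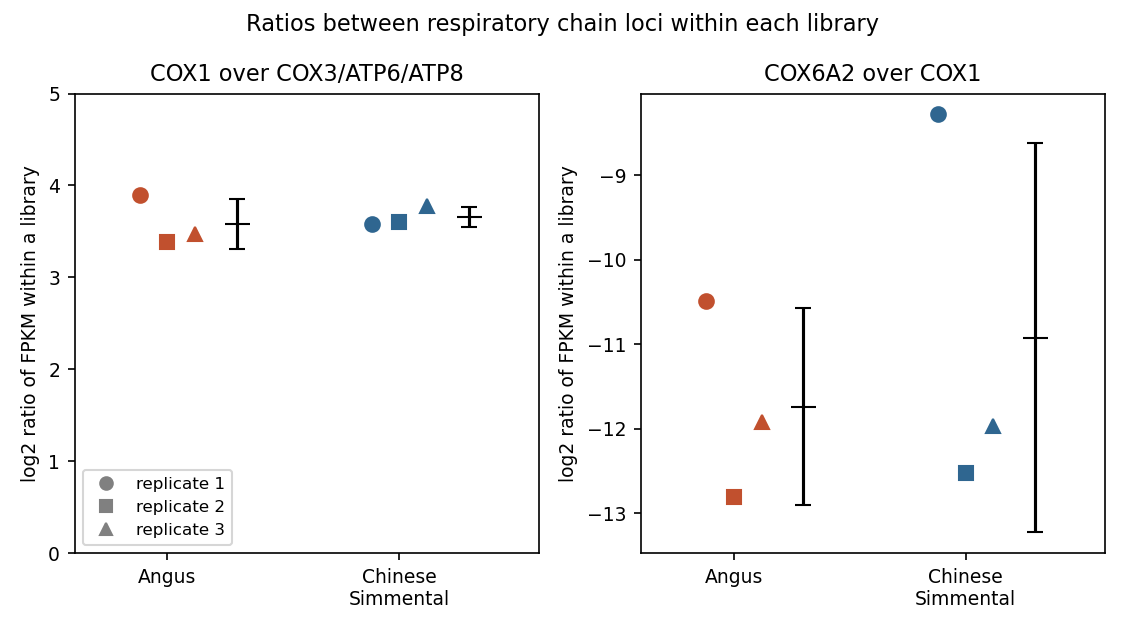
Log2 ratios of FPKM within each library, for COX1 over the joint COX3/ATP6/ATP8 locus (axis from 0) and for COX6A2 over COX1 (axis not from 0), with Angus left and Chinese Simmental right, markers for libraries and bars for the mean ± SD of 3 libraries. The first ratio stays between 3.38 and 3.90 in all libraries, while the second reaches -8.28 in Chinese Simmental replicate 1 against -12.52 and -11.96 in the other libraries of that breed.

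The same contrast appears in how the libraries are ordered. Pearson correlations of log2(normalised count + 1) over the 6 libraries were 0.997 between COX1 and the joint locus, 0.663 between COX1 and COX6A2 and 0.616 between the joint locus and COX6A2. These values describe libraries of both breeds that share the selection of the table. The listed genes with a symbol whose pattern was most like that of COX1 were ASIP, the agouti signalling protein (r = 0.975), COL26A1, a collagen gene (r = 0.971), and KLHL30 (r = 0.956). For the joint locus they were COL26A1 (r = 0.965), ASIP (r = 0.959) and PVR, a cell surface receptor (r = 0.948). For COX6A2 they were PRLR, the prolactin receptor (r = 0.984), LRRC27 (r = 0.973) and SLC16A11, a monocarboxylate transporter family member (r = 0.958). Mean normalised counts in Chinese Simmental were only 26.0 for COL26A1, 7.24 for KLHL30 and 10.3 for LRRC27. The lowest Chinese Simmental value of COL26A1 and of KLHL30 was 0, so their correlations rest partly on values at the floor.

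**Figure D3:**
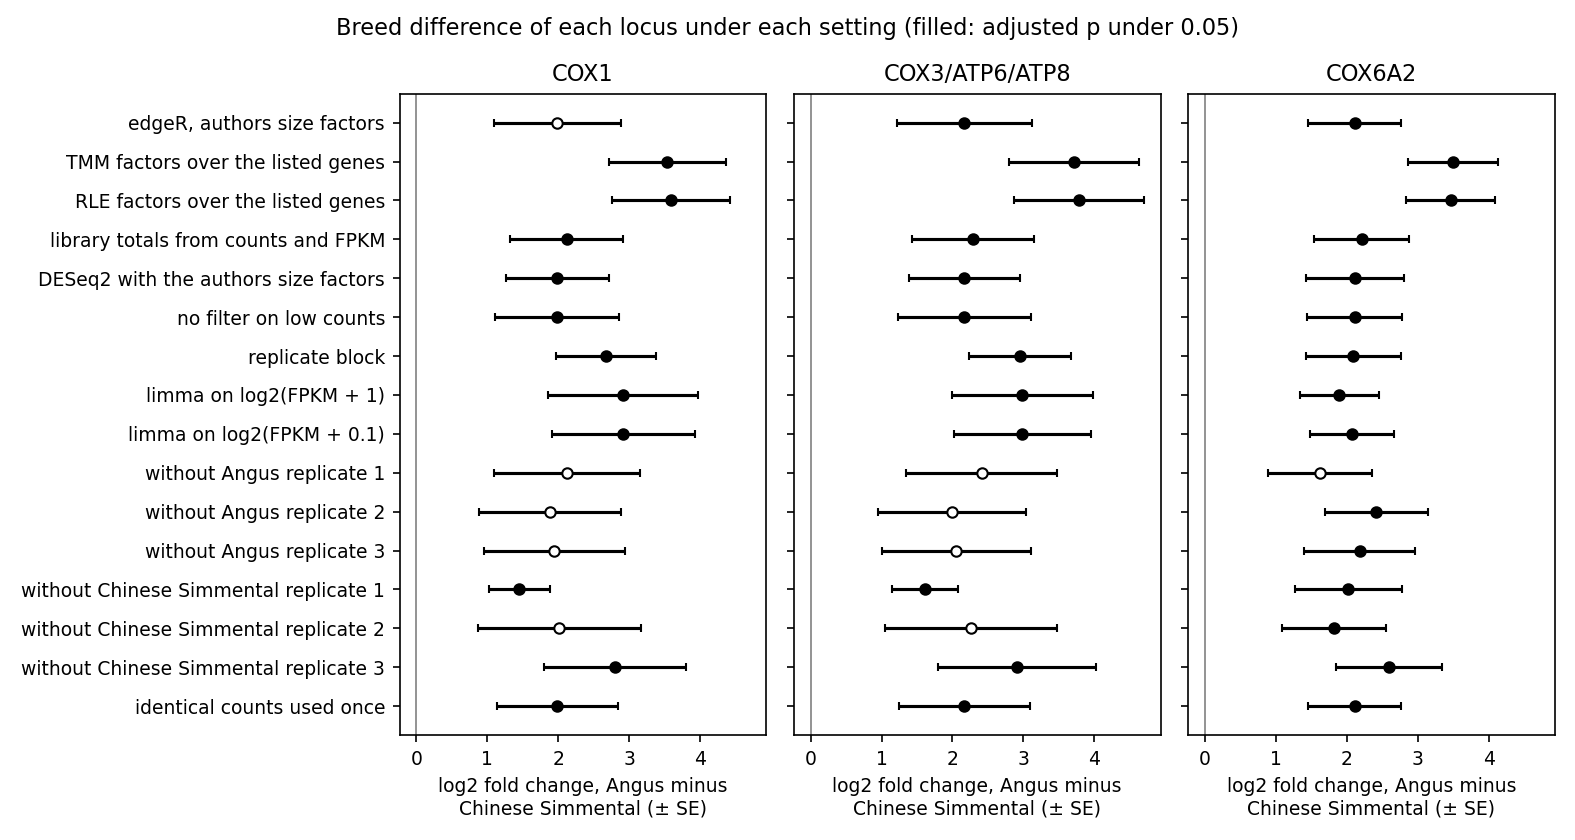
Log2 fold change, Angus minus Chinese Simmental, with SE bars, for COX1, the joint COX3/ATP6/ATP8 locus and COX6A2 under edgeR with the authors' size factors (top) and 15 alternatives. Filled markers have an adjusted p under 0.05. Every value lies above 0, and the open markers are in the top setting for COX1 and where single libraries are left out.

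Few other genes of oxidative phosphorylation are listed. Of 100 genes in the respiratory chain lists, which cover the mitochondrial and nuclear subunits of complexes I to V and cytochrome c, only these 5 names were in the table. COX1 and COX3 were listed of 3 mitochondrial complex IV genes, ATP6 and ATP8 of 2 mitochondrial complex V genes and COX6A2 of 18 nuclear complex IV genes. The mitochondrial complex I genes, cytochrome b, COX2 and the nuclear subunits of complexes I, II, III and V were not analysed here. The median log2 fold change of the 3 loci was 2.11, beside -1.57 over all 1989 tested genes.

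Among 262 genes of 11 further mitochondrial lists, 9 loci were listed, with 3 of them higher in Angus, 6 higher in Chinese Simmental and all past the threshold (median log2 fold change -1.32). This division, with 6 of 9 toward Chinese Simmental, stands beside 75.0% of all tested genes. With TMM factors over the listed genes FOXRED1 and PRDX5 turned to Angus without passing, and only 2 of the 6 kept their call. Loci annotated to the mitochondrial inner membrane in the authors' deposited table numbered 18, with 4 toward Angus and 14 toward Chinese Simmental (median -1.36).

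Genes that serve respiratory chain assembly and mitochondrial translation went both ways. NUBPL, an iron-sulphur protein needed to assemble complex I, averaged 721 ± 264 in Angus and 275 ± 52.1 in Chinese Simmental (log2 fold change 1.39 ± 0.44, adjusted p = 0.0164), but it shares its counts with ARHGAP5 and did not pass without Angus replicate 1 (adjusted p = 0.0596) or without Chinese Simmental replicate 2 (adjusted p = 0.0504). FOXRED1, another complex I assembly factor, averaged 1367 ± 21.9 in Angus and 3245 ± 1237 in Chinese Simmental (-1.25 ± 0.40, adjusted p = 0.0170), a call lost without Angus replicate 2 or 3 or Chinese Simmental replicate 2, at adjusted p between 0.0516 and 0.0519. Of the mitochondrial ribosome, MRPS35 averaged 2453 ± 209 in Angus and 958 ± 324 in Chinese Simmental, a log2 fold change of 1.36 ± 0.38 (adjusted p = 0.0113). MRPS15, of the same small subunit, was instead 11.9-fold higher in Chinese Simmental, at 15569 ± 10354 in Angus and 185722 ± 91553 in Chinese Simmental (-3.58 ± 0.69, adjusted p = 0.00387). These are edgeR quasi-likelihood tests, with SD over n = 3 libraries per breed and SE on the log2 scale.

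MRPS15 lies between CSF3R, the receptor for a neutrophil growth factor, which was not analysed here, and OSCP1 in the RefSeq table. OSCP1, named after its values were seen, was higher in Chinese Simmental too, at 70.4 ± 50.5 in Angus and 766 ± 501 in Chinese Simmental (SD, n = 3 each). The call of OSCP1 in the edgeR quasi-likelihood test (adjusted p = 0.00577) was lost with TMM factors over the listed genes (adjusted p = 0.0544). Counts of OSCP1 were only 0.00239 to 0.00532 of those of MRPS15. The summed neutrophil markers ranged over 59554 to 104103 in Angus and over 639251 to 1172300 in Chinese Simmental. The part of neutrophil transcripts in the MRPS15 count was not tested.

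Of the 5 mitochondrial enzymes and carriers outside the chain, 4 were higher in Chinese Simmental, a share close to the 75.0% of all tested genes, and with TMM factors SOD2 alone of these 4 kept its call. SOD2, the manganese superoxide dismutase of the matrix, was at 2348, 4746 and 7557 in Angus replicates 1 to 3, against 20400, 46661 and 39660 in Chinese Simmental replicates 1 to 3. Its breeds did not overlap, and its log2 fold change was -2.86 ± 0.54 (adjusted p = 0.00383, edgeR quasi-likelihood test). PRDX5, a peroxiredoxin, averaged 7902 ± 866 in Angus and 19672 ± 5931 in Chinese Simmental. UCP2, an inner membrane carrier of the uncoupling protein family that is widely expressed in immune cells, averaged 27862 ± 1557 in Angus and 82340 ± 34596 in Chinese Simmental. SLC25A10, the dicarboxylate carrier, averaged 1411 ± 513 in Angus and 3632 ± 906 in Chinese Simmental. The last 3 had adjusted p between 0.0113 and 0.0134 in the edgeR quasi-likelihood test, and the call of SLC25A10 was lost without Angus replicate 2 (adjusted p = 0.0564). CPT1C, the brain-type carnitine palmitoyltransferase and the only listed gene of 20 for fatty acid oxidation, averaged 641 ± 235 in Angus and 262 ± 46.1 in Chinese Simmental (adjusted p = 0.0216 by edgeR). That call was lost without Angus replicate 1 or 2 or Chinese Simmental replicate 3, at adjusted p between 0.0520 and 0.0742.

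**Figure D4:**
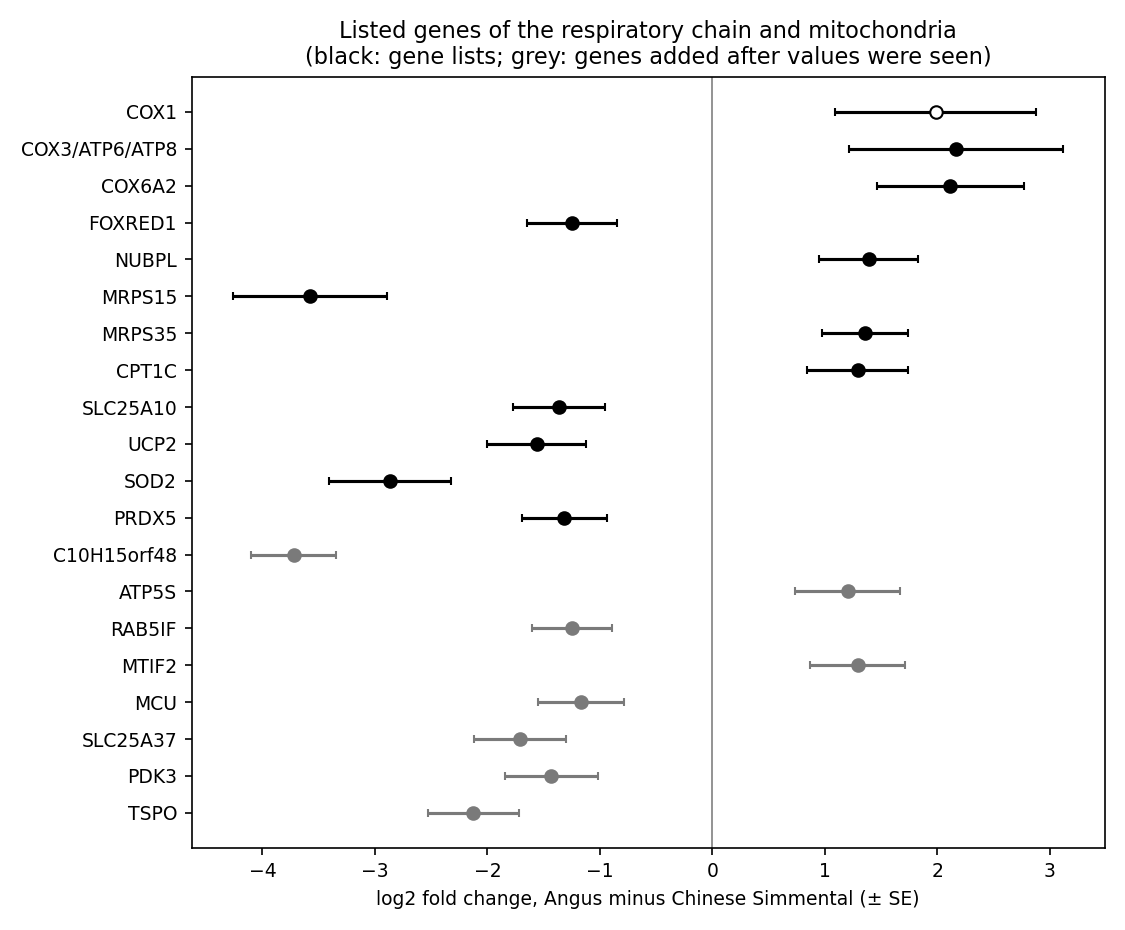
Log2 fold change, Angus minus Chinese Simmental, with SE bars from the edgeR fit, for the 12 listed loci of the respiratory chain and mitochondrial gene lists (black) and 8 genes added after their values were seen (grey). Open markers miss an adjusted p of 0.05. The 3 respiratory chain loci lie near 2, and the lowest values are those of C10H15orf48 at -3.72 and MRPS15 at -3.58.

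The muscle and blood cell markers of the table moved with the breeds as well. Of 30 muscle fibre markers 4 were listed. NEB (nebulin) was at 1143 ± 743 in Angus and 315 ± 88.2 in Chinese Simmental, and the fast troponin TNNT3, named after its values were seen, at 938 ± 527 in Angus and 195 ± 141 in Chinese Simmental. RYR1, the calcium release channel, was at 263 ± 136 in Angus and 2566 ± 1528 in Chinese Simmental, and TPM1, a tropomyosin, at 984 ± 203 in Angus and 2524 ± 1077 in Chinese Simmental (SD, n = 3 each). The first pair was higher in Angus, as COX6A2 was, and the second pair was higher in Chinese Simmental. All 4 passed the threshold of the edgeR quasi-likelihood test at adjusted p between 0.00366 and 0.0153, as did 99.9% of all tested genes. With TMM factors over the listed genes TPM1 was at 0.04, and it missed the threshold without Angus replicate 3 (adjusted p = 0.0561) and without Chinese Simmental replicate 3 (adjusted p = 0.0509). Summed, the 4 markers ranged over 2534 to 4040 in Angus and over 4479 to 6262 in Chinese Simmental. The actins, myosins and other defining markers of the list were not analysed here, so the labelled tissue could not be checked against them.

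The table holds 14 of 15 B cell markers, all past the threshold toward Angus. Of all tested genes 24.9% passed it toward Angus, 75.0% toward Chinese Simmental and 99.9% in either direction. The B cell sums ranged over 264140 to 360337 in Angus and over 70737 to 102789 in Chinese Simmental. It holds 8 of 12 monocyte and macrophage markers, all past the threshold toward Chinese Simmental, with sums of 11022 to 29800 in Angus and 107025 to 288886 in Chinese Simmental. The same direction and calls held for 9 of 12 neutrophil markers, and that direction is the one of most tested genes. The highest of them were CD79A, CD79B and SPIB of B cells, LYZ, CSF1R and AIF1 of monocytes and S100A9, S100A12 and S100A8 of neutrophils. With TMM factors AIF1, CLEC7A, CSF1R and the neutrophil marker MMP25 lost their calls. AIF1 and CLEC7A also missed the threshold without Angus replicate 2, Angus replicate 3 or Chinese Simmental replicate 3, as did AIF1 without Chinese Simmental replicate 1, and TNFRSF13C of B cells missed it in both limma fits on FPKM (adjusted p = 0.331 and 0.347). B cell sums in Chinese Simmental replicates 1 to 3 were 102789, 85344 and 70737, and neutrophil sums were 639251, 744909 and 1172300, so replicate 1 does not stand apart there as it does for COX1. The listed markers of the other cell types were NKG7, GZMA and PRF1 of T and natural killer cells (3 of 16), CFD, DGAT2 and LIPE of adipocytes (3 of 12), SPTB of red cells (1 of 13), GP9 of platelets (1 of 8) and VWF of endothelium (1 of 10), which were higher in Chinese Simmental, and PDGFRA of fibroblasts (1 of 10), which was higher in Angus. With TMM factors PRF1 and SPTB turned to 0.17 and 0.15, NKG7, GZMA, CFD, LIPE, GP9 and VWF lost their calls and DGAT2 alone of these 9 kept it, and the calls of PRF1, SPTB, GP9, GZMA and PDGFRA each depended on single libraries. The adipocyte sums ranged over 21304 to 47010 in Angus and over 141259 to 261553 in Chinese Simmental. None of the B cell, monocyte or neutrophil markers was at 0 in any library. The part of blood cells in the difference of the respiratory chain loci was not tested.

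**Figure D5:**
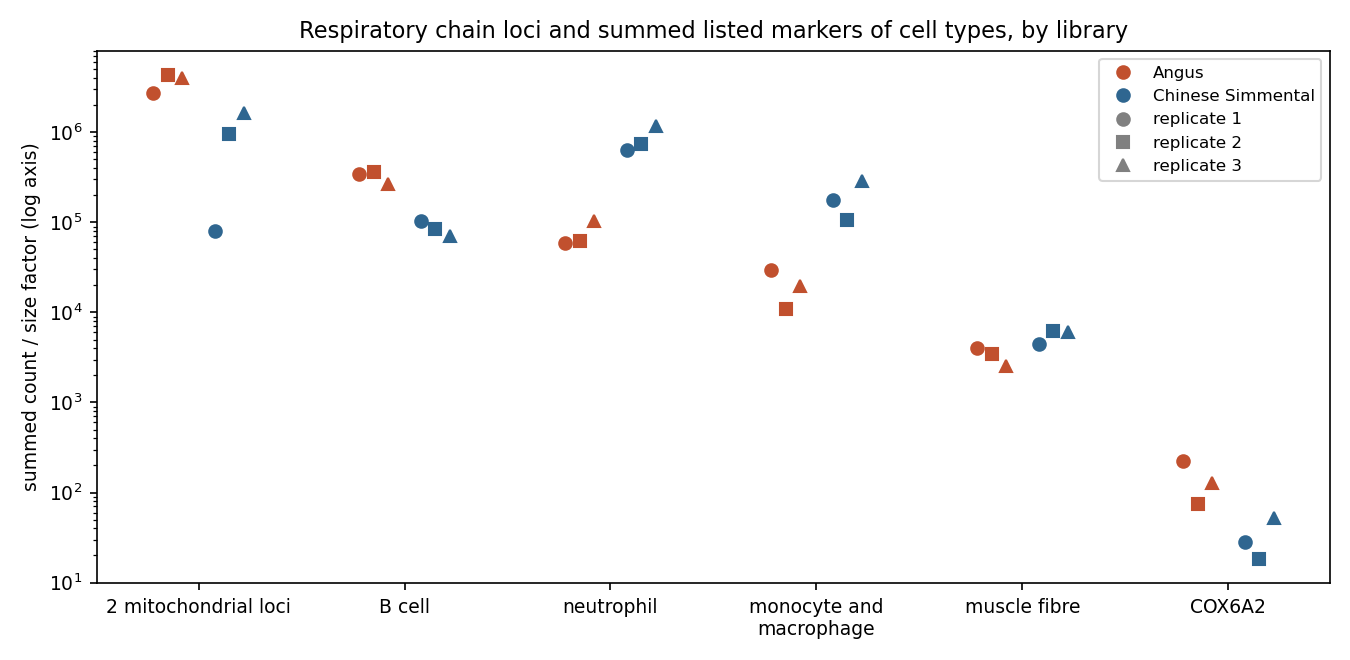
Summed normalised counts (log axis) of COX1 with the joint locus, of the listed markers of 4 cell types and of COX6A2, for each Angus library (left in each group) and Chinese Simmental library (right). The mitochondrial sum of Chinese Simmental replicate 1 lies far below that of the other libraries, while its B cell, neutrophil, monocyte and muscle fibre sums do not stand apart from the other Chinese Simmental libraries in that way.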

How the data were processed

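The submitters' processing notes name HISAT2 and the build ARS-UCD1.2. The counter, strand, annotation and comparison tool are not stated there. Libraries came from 1 µg of total RNA with an Illumina mRNA kit, per the labels' protocols. The deposited table holds, per the file headers, raw counts, FPKM, group means of scaled counts (a signal), log2 ratios of the breeds and the p-value and adjusted p of that comparison. It has 2040 gene rows and 1 blank row, left out, and 0 per-sample columns went unused.

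Members and gene lists were chosen with earlier results of these data known. The authors' size factors were solved from their group means (largest relative residual 1.52e-09). Counts were tested with edgeR 4.0.16 (R 4.3.3; quasi-likelihood test, filterByExpr minimum count 10, Benjamini-Hochberg over 1989 genes), with breed as the only term, since factors computed over the selected genes would centre them. The SE is the size of the log2 fold change divided by the square root of F. The fit was checked on simulated counts in which most genes did not differ, unlike the listed genes, so that check lends the calls here no support. Alternatives used DESeq2 1.42.0 and limma 3.58.1. Named genes were the members, every listed gene of the mitochondrial lists, up to 3 of the highest markers of each cell type and the 3 genes most like each locus. Neighbouring genes, BBS5, 8 further mitochondrial genes and markers named for a lost call were added after their values were seen. A few items are not reported here and were left out of the lists.

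Deviations from the breed means correlated at 0.274, 0.157 and 0.255 between same-numbered libraries, beside -0.361 to 0.223 for unlike numbers. The values overlap, since Angus replicate 3 with Chinese Simmental replicate 2 reached 0.223. Same-numbered values were all positive, so the replicate block is given where it changes a call. The labels do not say what the replicate numbers stand for. No pair of libraries agreed within sampling noise (smallest chi-square per degree of freedom 285). All 5 members matched the RefSeq table by symbol, and coordinates are left out, since its assembly is ARS-UCD2.0.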

Additional observations from a re-analysis of the deposited data

How the results depend on the processing

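All 3 loci stayed higher in Angus under all 15 alternatives, a direction already fixed by the selection of the table. The alternative with identical counts used once was chosen after seeing the data, as was the pairing of the ratios by replicate number. COX1, outside the threshold with the authors' size factors, passed it with TMM (3.54), RLE (3.59), library totals from counts and FPKM (2.12), DESeq2 (1.99), no filter on low counts (1.99), the replicate block (2.67), limma on log2(FPKM + 1) and log2(FPKM + 0.1) (2.91 each) and identical counts used once (1.99). The replicate block also ended the call of ATP5S (adjusted p = 0.0503) and changed no other call of the mitochondrial genes named. TMM and RLE moved the median of all genes toward Angus by 1.36 and 1.35, and relative to that shift COX1 stood at 2.18 and 2.24. With single libraries left out, log2 fold changes ran from 1.45 to 2.80 for COX1, from 1.61 to 2.91 for the joint COX3/ATP6/ATP8 locus and from 1.63 to 2.60 for COX6A2, and 2, 2 and 5 of 6 passed.

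Calls over all listed genes toward Chinese Simmental fell to 263 with TMM and 273 with RLE, and those of the mitochondrial lists to 2 under both. With single libraries left out, calls toward Angus ran from 291 to 466 over all genes (291 without Angus replicate 2) and from 1 to 6 over the mitochondrial lists (1 without Angus replicate 1, 3 without Angus replicate 2 or Chinese Simmental replicate 2). The causes were not tested. Low counts limit COX6A2, and unknown depth limits all levels.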

Other observations

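Other listed genes tied to respiration, chosen after their values were seen, also divided between the breeds. C10H15orf48, whose human counterpart is a relative of NDUFA4 that can take its place in complex IV during inflammation, was at 880, 1285 and 1222 normalised counts in Angus replicates 1 to 3, against 15755, 13527 and 15429 in Chinese Simmental replicates 1 to 3. Its libraries lay within 1.46-fold of each other in Angus and within 1.17-fold in Chinese Simmental. It was 13.2-fold higher in Chinese Simmental (log2 fold change -3.72 ± 0.38, SE; adjusted p = 0.00217 by edgeR's quasi-likelihood test), and unlike COX1 it was as high in Chinese Simmental replicate 1 as in the other libraries of its breed. ATP5S, a factor associated with ATP synthase, was at 189 ± 16.0 in Angus and 81.9 ± 12.3 in Chinese Simmental (SD, n = 3 each; edgeR adjusted p = 0.0299). Its call was lost with the replicate block (adjusted p = 0.0503) and without any 1 library other than Chinese Simmental replicate 1.

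MTIF2, the initiation factor of mitochondrial translation, was at 801 ± 227 in Angus and 328 ± 58.4 in Chinese Simmental, with its call lost without Angus replicate 2 or 3 or Chinese Simmental replicate 2. RAB5IF, which in human cells takes part in assembling respiratory complexes, was at 3744 ± 766 in Angus and 8896 ± 1723 in Chinese Simmental. MCU, the pore of the mitochondrial calcium uniporter, was at 1403 ± 278 in Angus and 3158 ± 946 in Chinese Simmental. SLC25A37, which carries iron into mitochondria, was 3.27-fold, PDK3, a kinase of pyruvate dehydrogenase, 2.70-fold and TSPO, an outer membrane protein, 4.37-fold higher in Chinese Simmental. With TMM factors over the listed genes RAB5IF and MCU turned toward Angus without passing the threshold, and SLC25A37, PDK3 and TSPO lost their calls. Without single libraries, the calls of RAB5IF (Angus replicate 2) and MCU (Angus replicate 1 or 2 or Chinese Simmental replicate 3) were lost too, at adjusted p between 0.0520 and 0.0593. In limma on log2(FPKM + 1) and log2(FPKM + 0.1) MCU was at -0.51 and -0.56 and missed the threshold (adjusted p = 0.184 and 0.179).

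The functional terms of COX1 in the authors' deposited table mix those of cytochrome c oxidase with prostaglandin synthase activity and the cyclooxygenase pathway, which belong to PTGS1, an enzyme also called COX1. The protein descriptions in the same row name cytochrome c oxidase subunit 1.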
